A study of Mus musculus with 26 samples.

Results

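Cyclophilins are enzymes that turn the peptide bond before a proline between its cis and trans forms, and they are the cellular binding partners of the drug cyclosporin A. Each family member works in its own place: Ppia in the cytosol, Ppib and Ppic in the endoplasmic reticulum and the secretory pathway, Ppid with the chaperone HSP90, Ppif in the mitochondrial matrix, and Ppie, Ppig, Ppih and Ppil1 in the nucleus, where they are found with the splicing machinery. Ppib, cyclophilin B, had a second role in these experiments: its RNA was the target of the control pulldown in ChIRP (chromatin isolation by RNA purification), a method that fishes an RNA and the DNA around it out of fixed cells with biotinylated antisense oligos.

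The 9 genes Ppia, Ppib, Ppic, Ppid, Ppie, Ppif, Ppig, Ppih and Ppil1 were taken by name from the 45318 genes of the count files, and all 9 were found. Of these, 8 passed the filter on low counts, and Ppic did not. The genes lie on 8 chromosomes of GRCm38: Ppia at chr11:6415443-6419817, Ppid at chr3:79591342-79603650, Ppie at chr4:123127115-123139951, Ppif at chr14:25694154-25700468, Ppig at chr2:69722545-69754012, Ppih at chr4:119300010-119320546, Ppil1 at chr17:29250803-29264186, and Ppib, whose position is given with its oligos, on chromosome 9, with Ppic on chromosome 18.

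RNA-seq of polyadenylated RNA was made from 4T1 cells, a BALB/c mouse mammary tumor line with a wild type genotype in the control libraries and MaTAR25-/- in the KO libraries. MaTAR25 is a nuclear long noncoding RNA, and the KO cells carry a CRISPR/Cas9 deletion over its transcription start site. There were 2 control, 3 KO1 and 4 KO2 libraries. KO1 and KO2 are 1 clone each, and the control cells were clones that had received a guide RNA against Renilla luciferase, so every cell had been through transfection and cloning. Nothing in the labels says that replicates of a group came from separate cultures, so the p-values measure the spread between these libraries. With 1 clone in each KO group, an effect of the deletion cannot be told apart from differences between clones. ChIRP-seq peak lists came from wild type 4T1 cells pulled down with all 14 MaTAR25 oligos (4T1-total), the odd-numbered oligos (4T1-odd) or the even-numbered oligos (4T1-even), and from tumor cells of FVB mice pulled down with all 14 (NDL-total). The NDL samples are named for MMTV-Neu-NDL mice, although their genotype label reads MMTV-PyMT. The Cyclophilin B oligo pool was used in 1 library of each cell type, and the peak lists were called against it.

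The Ppib oligos are shown because they define what the control pulldown could catch. Each is written 5′ to 3′, with capitals for its longest stretch that can pair with a transcript of another of the 9 cyclophilins.
Ppib-oligo1: gaccggaAAAGGGTGTggac
Ppib-oligo2: cgggCAGCAAAAGgaagacg
Ppib-oligo3: cctaCAGATTCATctccaat
Ppib-oligo4: GAAGTTCTCATCtgggaagc
Ppib-oligo5: gttATGAAGAACTGtgagcc
Ppib-oligo6: ccggagtcgacAATGATGAc
Ppib-oligo7: acacagACAGCTGCTTagag
Ppib-oligo8: aAATCAGGCCtgtggaatgt
Each of the 8 oligos had exactly 1 full match in the GRCm38 genome, at Ppib on the plus strand of chromosome 9 (chr9:66060222-66066623, ENSMUSG00000032383). Oligos 2 to 8 paired over all 20 bases with both annotated Ppib transcripts. Oligo 2 lies at chr9:66060331-66060350 in exon 1 and oligo 8 at chr9:66066558-66066577 in exon 4. Exons are numbered by the longest annotated transcript, of 3305 bases, which is not the longest coding one. Oligos 2 to 6 fall in coding sequence, oligos 7 and 8 in the 3′ untranslated region. Oligo 1 covers chr9:66060212-66060231, of which 10 bases lie before the annotated start of the gene, so only its other 10 bases pair with the annotated transcript. The longest stretch that any of them shares with a transcript of another cyclophilin is 12 bases, in oligo 4, with Ppia and with Ppic. In oligo 5 it is 11 bases, with Ppic. The remaining 6 oligos share 8 to 10 bases with their best other cyclophilin. The 14 MaTAR25 oligos paired with the 9 cyclophilins over at most 12 bases, in Ppia, and with Ppib over at most 10.

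Gene counts were 25367211 to 61110585 per library, and changes are given relative to TMM library sizes as CPM, counts scaled to a common library size. MaTAR25, the targeted gene, had 0.768 and 0.915 CPM in the control libraries and 0 to 0.307 CPM in the 7 KO libraries. Of the epithelial markers, Epcam, Krt8, Krt18 and Cdh1 were at 103.5 CPM or more in every library and the basal keratin Krt14 at 1.23 to 17.1 CPM, and Cdh1 was lower in KO (log2 fold change -0.65, edgeR adjusted p = 0.0684). Of 7 markers of other cell types, the fibroblast gene Dcn was at 0 in all 9 libraries, and Ptprc, Pecam1 and Pdgfrb reached at most 0.904 CPM. The macrophage gene Cd68 was at 3.17 to 4.19 CPM in control, 11.4 to 28.3 CPM in KO1 (called higher, adjusted p = 0.0958) and 1.77 to 19.3 CPM in KO2. Col1a1 was at 2.65 to 3.99 CPM in control and at most 0.995 CPM in KO (called lower, adjusted p = 0.0132). The endothelial gene Cdh5 was called higher in KO2 (adjusted p = 0.0317) at up to 1.39 CPM. The part of these markers in the results on cyclophilins was not tested. KO2 replicate 3 stood apart from its group for part of the profile: Vim, a mesenchymal filament gene, was at 574 CPM there and at 2774 to 3142 CPM in the other KO2 libraries. Over all tested genes its Pearson correlation with the other KO2 libraries was 0.960 to 0.977, and with the KO1 libraries 0.966 to 0.972. Results that rest on this library are given with and without it.

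**Figure D1:**
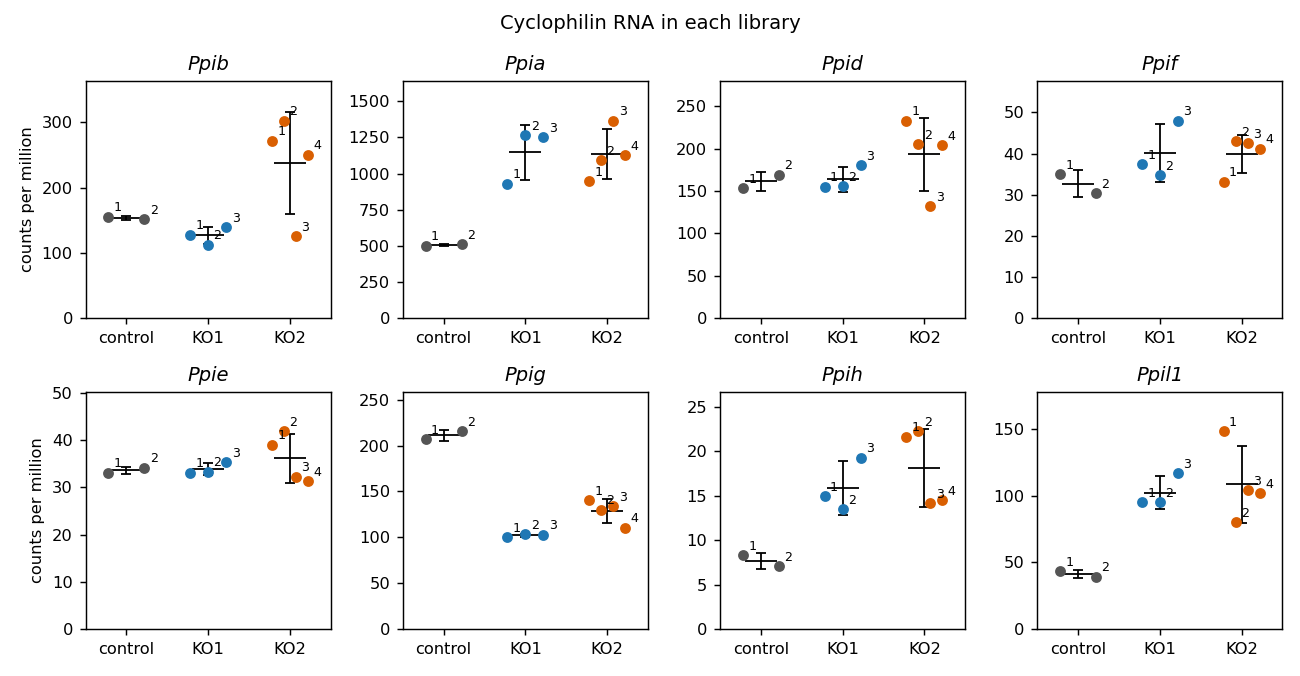
CPM of 8 cyclophilins (vertical axis, from 0) in the control, KO1 and KO2 libraries; points are libraries numbered by replicate, bars are group means with their SD. Ppia, Ppih and Ppil1 lie higher in all 7 KO libraries than in both control libraries and Ppig lies lower, while Ppib is high in KO2 replicates 1, 2 and 4 only.

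Ppib, which in the endoplasmic reticulum helps to fold and modify collagen, was not steady across the libraries. It had 155.6 and 151.8 CPM in the control libraries, 128.1, 112.8 and 139.1 CPM in KO1, and 271.7, 302.7, 125.5 and 250.1 CPM in KO2. All 3 KO1 libraries lay under both controls, KO2 replicates 1, 2 and 4 lay above every other library, and KO2 replicate 3 lay among the KO1 values. Between KO2 and KO1 the RNA differed by 0.91 ± 0.26 (SE) on the log2 scale, or 1.87-fold, and passed the threshold of 0.1 (edgeR adjusted p = 0.0532). As 1 group, the 7 KO libraries had a mean of 190.0 ± 81.2 CPM (SD, n = 7) against 153.7 ± 2.64 CPM (SD, n = 2) in control, and the log2 fold change of 0.31 ± 0.40 (SE) did not pass (edgeR adjusted p = 0.644). Against control alone, neither KO1 (log2 fold change -0.28 ± 0.30, adjusted p = 0.539) nor KO2 (0.63 ± 0.30, adjusted p = 0.156) passed.

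KO2 replicate 3 decided the KO2 value of Ppib. Without it, Ppib was higher in KO2 than in control by 0.84 on the log2 scale (adjusted p = 0.00558), and the adjusted p between KO2 and KO1 fell to 0.00228 with a log2 difference of 1.12. The call between KO2 and KO1 was in turn lost without KO1 replicate 1, 2 or 3 (adjusted p = 0.142, 0.191 and 0.109) and without KO2 replicate 1 (adjusted p = 0.106). Ppib shares 825 bases of exon with Snx22 on the opposite strand, and Snx22 held 2891 counts over the 9 libraries against 63388 for Ppib.

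The coefficient of variation of Ppib over the 9 libraries was 39.6%, with 2.68-fold between the highest and the lowest. Of 15023 tested genes 63.9% had a smaller coefficient, and of the 2647 with a mean of at least 100 CPM 89.0% did. Among 15 commonly used reference genes it ranged from 11.3% for Eef1a1, a translation elongation factor, and 11.5% for the ribosomal gene Rpl13a to 57.7% for the transferrin receptor Tfrc. Ppia, itself often used as a reference, had 31.4%, close to the 31.1% of Actb, and Gapdh had 21.3%. The lowest of the cyclophilins was Ppie at 9.90%.

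**Figure D2:**
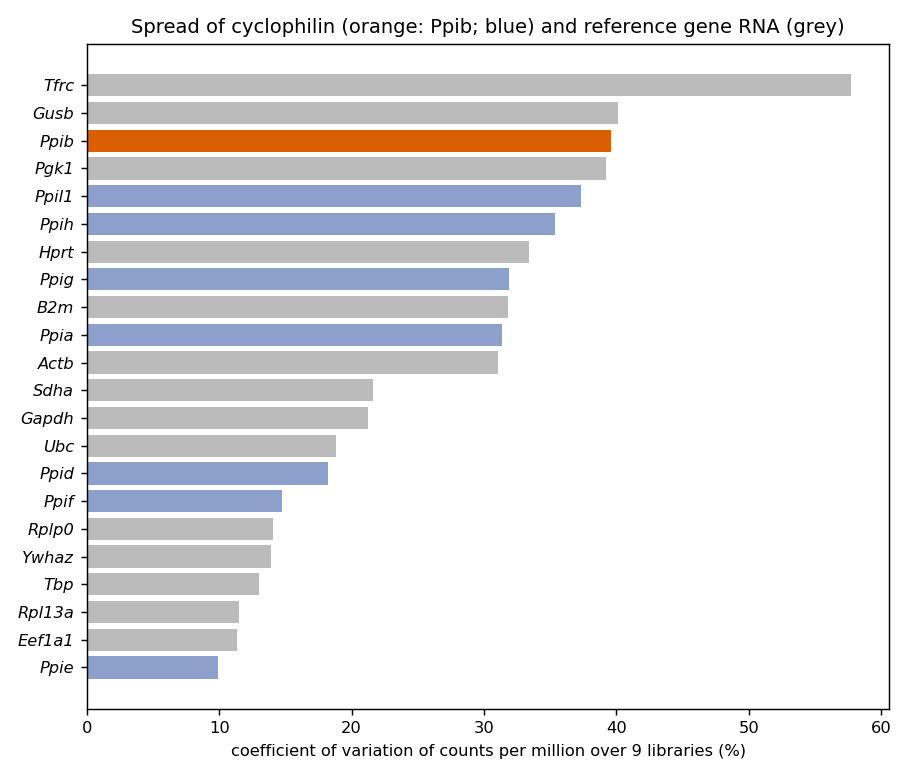
Coefficient of variation of CPM over the 9 libraries (horizontal axis, percent, from 0) for 8 cyclophilins and 14 of the 15 reference genes. Ppib at 39.6% lies near the top, under Tfrc and Gusb among the genes plotted, and Ppie at 9.90% is lowest.

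The genes whose levels followed Ppib most closely were Zeb2, Slc12a4, Fam160b1, Fosl1 and Peak1, with Pearson r from 0.970 to 0.986 over the 9 libraries on the log2 scale; these points share 3 groups and are a description. Zeb2, a transcription factor of epithelial-mesenchymal transition, had 18.5 and 18.2 CPM in control, 9.83, 7.86 and 12.6 CPM in KO1, and 52.8, 48.4, 10.4 and 44.1 CPM in KO2. Fosl1, a subunit of the AP-1 factor, had 287.9, 359.3, 67.1 and 195.9 CPM in KO2 and at most 111.5 CPM elsewhere. In all 5 genes KO2 replicate 3 lay below the other KO2 libraries, as in Ppib and Vim. The 5 genes were chosen by their likeness to Ppib over these same libraries, so this is no separate result. Among the cyclophilins, Ppid came closest to Ppib (r = 0.868), followed by Ppie (r = 0.634). The part of this shared difference between libraries in the Ppib result was not tested.

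**Figure D3:**
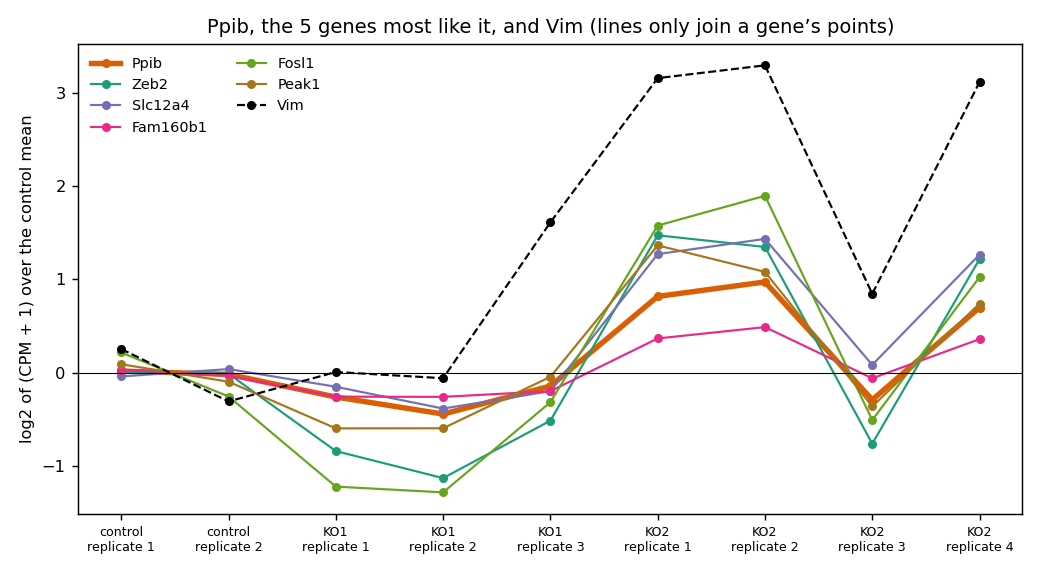
Level of Ppib, the 5 genes most like it and Vim in each library (vertical axis, log2 of CPM plus 1, relative to the mean of the control libraries); lines only join the points of a gene. KO2 replicates 1, 2 and 4 lie above control in all 7 genes, and in KO2 replicate 3 Ppib is at 125.5 CPM.

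Of the 8 cyclophilins tested, 3 were higher and 1 was lower in KO than in control. Of all 15023 tested genes 11.9% were called higher and 10.7% lower in this comparison, and 34.4% had no overlap between the groups, which was so for 4 of the 8 cyclophilins. The same 4 genes passed in each clone. KO1 and KO2 share the 2 control libraries, so the 2 clones do not give independent results. Leaving out 1 control library took away calls: Ppia and Ppil1 passed without control replicate 1, and only Ppia without control replicate 2.

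Ppia, the abundant cytosolic cyclophilin that inhibits calcineurin when bound to cyclosporin A, was the most abundant and rose. It had 502 and 511.3 CPM in control, 929.8, 1264 and 1251 CPM in KO1, and 945.8, 1095, 1367 and 1128 CPM in KO2. No KO library overlapped with control. The log2 fold change was 1.17 ± 0.18 (SE), or 2.25-fold (edgeR adjusted p = 0.00366), and an exact two-sided permutation test of 7 against 2 libraries gave p = 0.0278, the smallest it can give. That test, here and below, takes the KO libraries of 2 clones as separate units. Of all tested genes 34.4% had no overlap between KO and control. The clones differed by -0.02 ± 0.16 on the log2 scale (adjusted p = 0.954). Ppia has relatives in the genome: 3 other stretches matched at least 50% of its longest coding transcript at 90% identity or more, the best of them at 96.1%, and pseudogenes there held 160 counts over the 9 libraries against 357989 for Ppia. With any alignment of at least 300 bases there were 38, the closest at 100% identity over 42.8% of the transcript. Reads that map to several places were not counted. They made up 24.1% of the reads in each control library and 25.2 to 27.5% in the KO libraries. The level of Ppia is therefore uncertain, and the part of this difference in its change was not tested. In the basigin and calcineurin list, Bsg, the surface receptor of extracellular Ppia, rose 1.80-fold (adjusted p = 0.0159), and 3 genes fell of 10, among them Nfatc4, with a log2 fold change of -1.84 (adjusted p = 0.0313). Of all tested genes 11.9% were called higher in KO and 10.7% lower.

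Ppil1 and Ppih, both parts of the spliceosome, rose as well. Ppil1, which binds Snw1 in the activated spliceosome, had 43.4 and 39.2 CPM in control, 95.2, 94.9 and 116.7 CPM in KO1, and 148.3, 79.9, 103.9 and 101.9 CPM in KO2. The lowest KO value was above both controls, and the log2 fold change was 1.36 ± 0.23 (SE), or 2.56-fold (edgeR adjusted p = 0.00553). Ppil1 shares 188 bases of exon with the antisense gene AC162182.3, which has no counts of its own here, so reads of the pair cannot be told apart if counting ignored strand. Ppih, which sits with Prpf3 and Prpf4 in the U4/U6 small nuclear ribonucleoprotein, had 8.27 and 7.04 CPM in control, 14.9, 13.5 and 19.3 CPM in KO1, and 21.6, 22.3, 14.1 and 14.5 CPM in KO2. Again no library overlapped, with a log2 fold change of 1.16 ± 0.28 (SE), or 2.24-fold (edgeR adjusted p = 0.0210). Ppih was the least abundant of the 8, with 231 to 938 counts per library, and lost its call when either control library was left out, with adjusted p = 0.160 without replicate 1 and 0.220 without replicate 2. It had 6 other stretches in the genome with at least 300 aligned bases, the closest at 100% identity over 36.9% of its longest coding transcript. Their part in its level was not tested. The exact permutation p was 0.0278 for each gene, the smallest possible.

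Ppig, a large nuclear cyclophilin with a serine- and arginine-rich tail, fell. It had 206.9 and 215.7 CPM in control, 100.2, 103.1 and 102.7 CPM in KO1, and 140.3, 129.9, 134.0 and 110.4 CPM in KO2. The 3 KO1 libraries lay within 3 CPM of each other, below all KO2 libraries, which in turn lay below both controls. The log2 fold change fell by 0.85 ± 0.16 (SE), or 1.80-fold lower (edgeR adjusted p = 0.00857, exact permutation p = 0.0278). KO1 alone gave -1.05 ± 0.14 (adjusted p = 0.00158). KO2 alone gave -0.72 ± 0.13 (adjusted p = 0.00613). The difference between the clones, 0.34 ± 0.12, just missed the threshold (adjusted p = 0.10003), although the groups did not overlap. With DESeq2 it passed (adjusted p = 0.0450).

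Ppie, Ppid and Ppif showed no call in any of the 4 comparisons. Ppie, which carries an RNA-recognition motif and belongs to the intron-binding complex of the spliceosome, lay between 31.3 and 41.9 CPM in all 9 libraries, with a log2 fold change of 0.07 ± 0.16 (SE, adjusted p = 0.819). It shares 133 bases of exon with Bmp8b on the opposite strand, which held 54 counts over the 9 libraries. Ppid, the HSP90 partner also called cyclophilin 40, had 153.3 and 169.2 CPM in control, 155.3, 155.4 and 180.2 CPM in KO1, and 233.1, 205.1, 131.8 and 203.7 CPM in KO2. The KO2 libraries other than replicate 3 were the highest of the 9, and without replicate 3 Ppid passed in KO2 against control (log2 fold change 0.41, adjusted p = 0.0592) and against KO1 (0.39, adjusted p = 0.0578). Ppif, a regulator of the mitochondrial permeability transition pore, had 34.9 and 30.3 CPM in control and 33.2 to 48.0 CPM in KO, and its log2 fold change was 0.29 ± 0.18 (SE, adjusted p = 0.291). Ppif and the antisense gene Ppifos share 921 bases of exon, and no source read here states whether counting used strand.

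Ppic, cyclophilin C of the secretory pathway, had 1 count in control replicate 1 and none in the other 8 libraries. A count of 0 allows up to 0.0478 to 0.126 CPM, taken as 3 counts per library, which covers counting error only.

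Per clone the split was alike. In KO1 against control 3 cyclophilins were called higher and 1 lower of 8, where 15.9% and 15.7% of all genes were, and 5 of 8 did not overlap, where 66.9% of all genes did not. In KO2 against control it was again 3 and 1, where 16.5% and 15% of all genes were, and 4 of 8 did not overlap, where 46.9% of all did not. Between KO2 and KO1 1 was called higher (Ppib) and 0 lower by edgeR, where 10.2% and 9.43% of all genes were; 1 of 8 (Ppig) did not overlap, where 24.5% of all did not. At an unadjusted p under 0.05 Ppib and Ppig were higher in KO2 than in KO1, and DESeq2 called both.

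**Figure D4:**
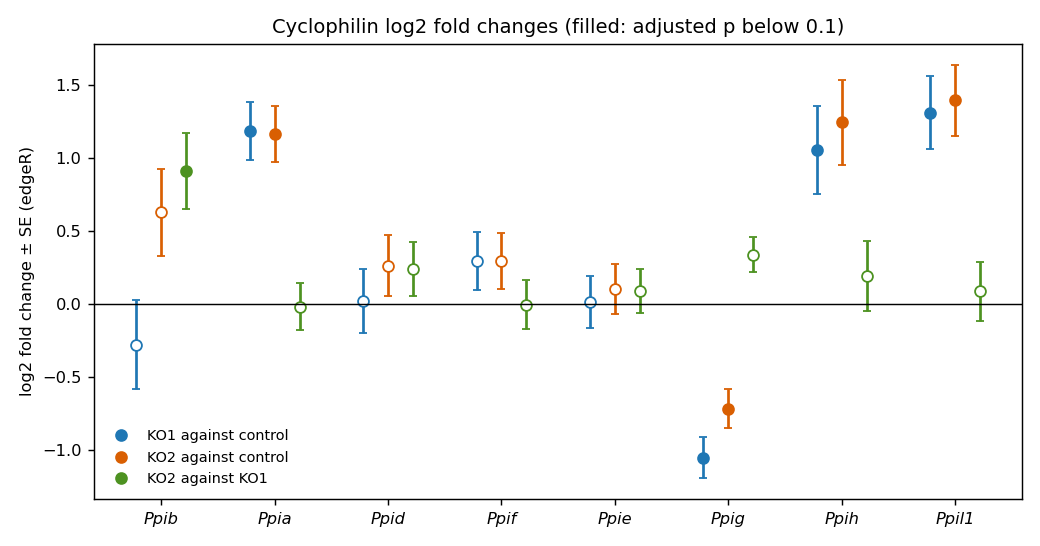
Log2 fold change with its SE (vertical axis, edgeR, 3-group fit) of 8 cyclophilins in KO1 against control, KO2 against control and KO2 against KO1; filled points have an adjusted p below 0.1. Ppia, Ppih and Ppil1 are above 0 and Ppig below 0 in both clones, and only Ppib is filled between the clones.

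Per length of exon, Ppia was the most abundant in control cells at 144.4 ± 1.87 RPKM, CPM per kilobase of exon (SD, n = 2), followed by Ppib at 46.5 ± 0.798, Ppid at 34.8 ± 2.43, Ppig at 26.0 ± 0.769, Ppie at 19.6 ± 0.421, Ppil1 at 16.5 ± 1.16, Ppif at 6.47 ± 0.646 and Ppih at 4.04 ± 0.458 RPKM. No neighbours in this order overlapped in the 2 control libraries. In KO1 the order changed: Ppil1 came after Ppia at 41.0 ± 5.01 RPKM (SD, n = 3), overlapping with Ppib at 38.3 ± 4.00, and Ppib overlapped with Ppid at 35.3 ± 3.09. In KO2 Ppib was next after Ppia at 71.9 ± 23.5 RPKM (SD, n = 4) and overlapped with Ppil1 at 43.5 ± 11.5. The order of Ppig and Ppie also turned, with Ppig lower than Ppie in each clone. Exon length was the union over all annotated transcripts, which for Ppib is 3305 bases where its longest coding transcript has 892, so levels between genes depend on the transcripts in use. Lengths came from GENCODE vM21 and counts from GENCODE vM5, and the part of this difference in the levels was not tested.

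None of the 8 other genes with a cyclophilin domain (Ppil2, Ppil3, Ppil4, Ppil6, Ppwd1, Cwc27, Nktr and Ranbp2) was called in any of the 4 comparisons by edgeR. At an unadjusted p under 0.05 edgeR found 0 of the 8 in each comparison, and DESeq2 called 0 as well. Their median log2 fold change in KO was 0.01, against 0.06 over all tested genes and 0.30 over the 8 cyclophilins tested. The nearest to a call was Ppil3, with a log2 fold change of 0.42 ± 0.21 (SE, adjusted p = 0.199). Nktr, a large serine- and arginine-rich cyclophilin like Ppig, had -0.07 (adjusted p = 0.877), and Ranbp2, a nuclear pore protein with a cyclophilin domain, had 0.08 (adjusted p = 0.784).

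Of the other prolyl isomerases (FKBP and parvulin families), 5 of 16 tested were higher in KO and 0 lower, with a median log2 fold change of 0.34. Over all tested genes 11.9% were called higher and 10.7% lower. Fkbp2 of the endoplasmic reticulum had 0.70 (adjusted p = 0.0302) and Fkbp8 of the outer mitochondrial membrane 0.46 (adjusted p = 0.0412), whereas Fkbp3 and Fkbp5 were at 0.09 and -0.01 (adjusted p = 0.764 and 0.985). Of the 10 HSP90 and co-chaperone genes that work with Ppid, 6 were higher and 0 lower, with a median of 0.65. Ppp5c, a phosphatase that binds HSP90, had 1.08 (adjusted p = 0.00327), and Hsp90ab1 itself 0.60 (adjusted p = 0.0378).

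Among 14 genes of collagen modification in the endoplasmic reticulum, where Ppib works in a complex with P3h1 and Crtap, 1 was higher and 1 lower in KO. The shares over all tested genes were 11.9% higher and 10.7% lower. Crtap had a log2 fold change of 1.07 (adjusted p = 0.0648) and P3h4 one of -2.03 (adjusted p = 0.0466). P3h1, the prolyl 3-hydroxylase of that complex, moved between the clones as Ppib did: it had 15.4 and 16.1 CPM in control, 9.46, 5.40 and 7.73 CPM in KO1, and 31.8, 36.3, 12.8 and 28.1 CPM in KO2, with KO2 replicate 3 again the lowest of its group. It was 1.85 higher on the log2 scale in KO2 than in KO1 (adjusted p = 0.0150). The collagen chaperone Serpinh1 went the other way, at -0.75 (adjusted p = 0.0379). Crtap, also of that complex, did not move with Ppib between the clones (0.09, adjusted p = 0.867). Between KO2 and KO1 the list as a whole had 4 higher and 1 lower of 14, with a median of 0.54 against 0.02 over all genes. Of all tested genes 10.2% were called higher and 9.43% lower between the clones.

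For the spliceosome list that goes with Ppih, Ppil1 and Ppie, 4 of 15 were higher in KO and 0 lower, with a median of 0.23. For this and the lists below, 11.9% of all tested genes were called higher in KO and 10.7% lower. Prpf31, which binds the U4/U6 particle near Ppih, had a log2 fold change of 1.41 (adjusted p = 0.00366) and the core protein Prpf8 0.74 (adjusted p = 0.00865). Of the direct partners, Prpf3 had -0.34 (edgeR adjusted p = 0.375), Prpf4 0.64 (adjusted p = 0.135) and Snw1 -0.43 (adjusted p = 0.104) in KO, none of them called by edgeR, while DESeq2 called Prpf4 and Snw1. By clone edgeR called Prpf4 higher in KO2 (0.83, adjusted p = 0.0288), Snw1 lower in KO2 (-0.46, adjusted p = 0.0919) and Prpf3 lower in KO1 (-0.60, adjusted p = 0.0956). Of 11 candidate parts or regulators of the mitochondrial pore that go with Ppif, 5 were higher and 0 lower, with a median of 0.47, led by the adenine nucleotide carrier Slc25a5 at 1.28 (adjusted p = 0.00621). Of the 15 reference genes 7 were higher and 0 lower, with a median of 0.54. Among them Gapdh had 0.64 (adjusted p = 0.0284) and Actb 1.15 (adjusted p = 0.00362), beside 1.17 for Ppia.

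In the ChIRP-seq lists, a peak was given to a cyclophilin when its nearest promoter, as deposited, was that of the gene. Peaks were called over pooled replicates, so there is no replicate test. In 4T1-total 4 of the 9 cyclophilins had such a peak, where 59.6% of tested genes had one. In 4T1-odd it was 6 of 9 (52.4% of tested genes), in 4T1-even 5 of 9 (52.9%) and in NDL-total 4 of 9 (58.0%). The lists gave them 11, 13, 13 and 13 peaks.

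Ppib, the control RNA, had no peak nearest to it in any of the 4 lists. The closest peaks lay 61855 bases from the gene in 4T1-total, 12734 in 4T1-odd, 29767 in 4T1-even and 13623 in NDL-total. Of annotated protein-coding genes 3.84%, 30.4%, 13.1% and 23.6% lay farther from a peak in these lists, in the same order, and 50.1%, 43.9%, 46.2% and 49.1% held a peak within the gene. The Ppib pulldown was the background of all 4 lists, and its part in the lack of a peak at Ppib was not tested. Ppid also had none, but 4T1-even lists no peak at all on chromosome 3, where Ppid lies, and 3774 to 4659 are listed there in the other lists.

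**Figure D5:**
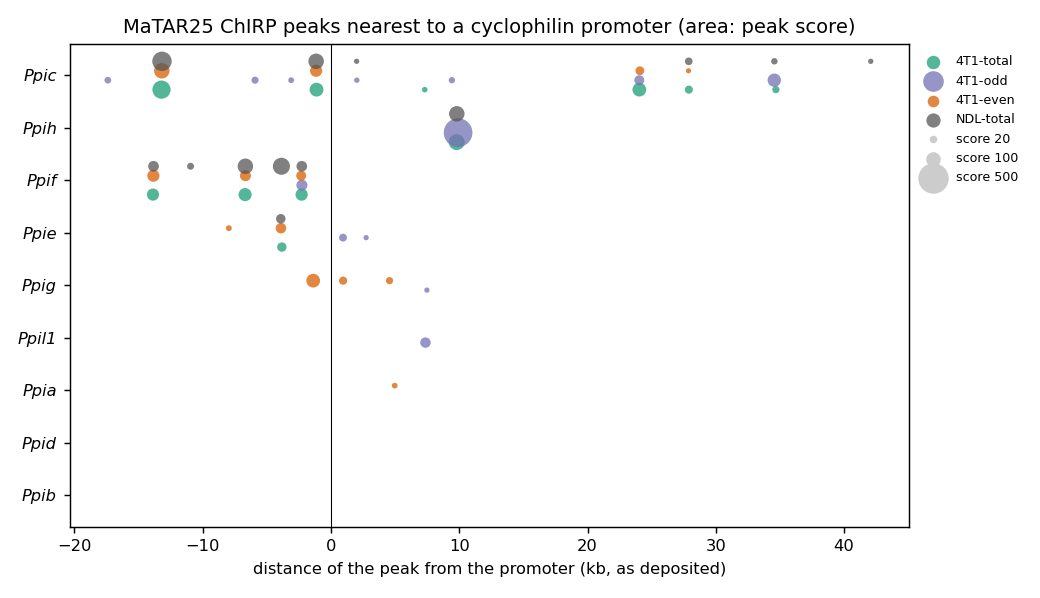
Peaks nearest to each cyclophilin in the 4 lists, by distance from the promoter (horizontal axis, kb) with the area of the point for the peak score. Ppib and Ppid have none, Ppif has peaks upstream that recur between lists, and the highest score, 504.8, is that of Ppih in 4T1-odd.

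Ppih had the highest score of any of these peaks. It lies near the middle of the gene, where the list annotates a transcript end, at chr4:119310098-119310920 in 4T1-odd (score 504.8, place 2250 of 61311), and overlapping peaks were listed in 4T1-total (score 155.8) and NDL-total (146.7) but not in 4T1-even. The longest stretch that this peak shares with a MaTAR25 oligo is 11 bases of oligo 7, an odd-numbered one. It is shown with the 30 bases of the peak around it, on the minus strand at chr4:119310476-119310505, in an intron of Ppih, with the shared stretch in capitals.
MaTAR25-oligo7: ttgggagtAACCTGGGGAAg
Ppih peak: cattgggaccAACCTGGGGAAccaggagat
A stretch this long is common: 43.7% of the peaks of 4T1-odd, 40.7% of 4T1-total, 39.9% of NDL-total and 34.8% of 4T1-even hold 11 or more bases of a MaTAR25 oligo on either strand. For the 8 Ppib oligos the shares were 2.45%, 2.43%, 2.57% and 2.49%, in the same order. Per megabase the genome holds 139 such sites for the 14 MaTAR25 oligos and 87.4 for the 8 Ppib oligos, and the peaks of the lists hold 1260 to 1532 and 47.2 to 48.6.

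Ppif had peaks in all 4 lists, all upstream of the gene on chromosome 14. The one 2.27 to 2.32 kb before the promoter overlapped in all 4, with scores of 91.8 in 4T1-total, 75.3 in 4T1-odd, 61.1 in 4T1-even and 69.6 in NDL-total. The highest score for Ppif, 179.4, was in NDL-total at chr14:25689976-25690600 and in no other list. Ppic, on chromosome 18, with 1 RNA count in all 9 libraries, had the most peaks of the 9, with 6, 7, 4 and 6 in 4T1-total, 4T1-odd, 4T1-even and NDL-total. Within Ppic extended by 5 kb there were 2, 3, 1 and 2, and the farthest lay 42075 bases from the promoter. The highest scores of the peaks nearest to Ppic were 203.7, 109.2, 148.0 and 231.2 in that order. A peak just upstream of Ppic was listed in 4T1-total (117.7), 4T1-even (91.0) and NDL-total (147.6) but not in 4T1-odd, and shares 14 bases with oligo 12, an even-numbered one. Of all peaks of these lists 3.27 to 3.93% hold 14 or more bases of a MaTAR25 oligo. Oligo number and list went together in some peaks and not in others. In the 4T1-even peak of 148.0 no stretch was longer than 9 bases of the odd-numbered oligo 3. In the 4T1-odd peak of 109.2 none was longer than 10 bases of the even-numbered oligo 4. Whether they go together over all peaks was not tested.

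The remaining genes had at most 3 peaks in a list. Ppie had 1 or 2 per list, of which the one about 3.8 to 3.9 kb before the promoter overlapped in 4T1-total (54.6), 4T1-even (68.4) and NDL-total (55.4). Ppig had 3 peaks in 4T1-even, the highest at chr2:69720845-69721470 with a score of 115.8, and these overlapped with none in another list. 4T1-even lists 8877 peaks on chromosome 2, against 4454 to 5666 in the others. Ppia had 1 peak with a score of 20.4 in 4T1-even, and Ppil1 1 with 66.7 in 4T1-odd. Of the 4 genes whose RNA changed, Ppih had a peak in 3 lists, Ppig in 2, and Ppia and Ppil1 in 1 each.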

How the data were processed

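Per the labels and the study's methods, single-end reads were aligned by STAR (GRCm38) and assigned to GENCODE vM5 genes by HTSeq. The authors deposited the resulting counts per gene without normalization. KO2 replicate 2 lists each gene 3 times with the same count, which was used once. Reads not assigned to a gene (33.9 to 37.0% of a library) stayed out of library sizes. The authors mapped ChIRP-seq reads with Bowtie2 and called peaks with HOMER over pooled replicates against the Ppib pulldown. The deposited peak score is HOMER's, with a distance to the nearest promoter, and has no depth given here. Columns of the authors' own comparisons were not used.

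The gene counts went into edgeR 4.0.16 (R 4.3.3), with TMM sizes and filterByExpr. Quasi-likelihood tests over 15023 genes were adjusted after Benjamini-Hochberg, and 0.1 was the threshold. KO against control used 2 groups, and the clones a 3-group fit. Single genes also had an exact two-sided permutation test on log2 of CPM plus 1. The scripts were tested on simulated data. RPKM was CPM per kilobase of union exon. Genes, transcripts and positions came from GENCODE vM21 on GRCm38, peaks' promoters were matched by transcript, and 99.8% of peaks had a match. Oligo sequences came from the study's supplement, and matches are exact. Copies were found with blastn 2.17.0. Other tools were DESeq2 1.42.0 and pandas 2.3.3. Genes named are the 9 cyclophilins, the other cyclophilin-domain genes, up to 2 genes with the lowest p among called genes and up to 2 with the highest p of each list, partners fixed by name, and the 5 genes most like Ppib with a mean of at least 10 CPM. P3h1 and Tfrc, Eef1a1 and Rpl13a by their spread, were named after their values were seen. The cyclophilins and the gene lists were chosen with earlier results of these data known. The spread of 1 reference gene is not reported here.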

Additional observations from a re-analysis of the deposited data

Results flagged for a closer look

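Ppib differed between the KO clones. Its log2 fold change between KO2 and KO1 was 0.91 (edgeR adjusted p = 0.0532), with 3 of the 4 KO2 libraries above all 3 KO1 libraries and KO2 replicate 3, at 125.5 CPM, within the KO1 range. No library of a cyclophilin lay far enough from its group, by Dixon's test in the 4 KO2 and the 7 KO libraries, to be named. That test was made on 16 groups of values and would name about 1 in 20 by chance.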

How the results depend on the processing

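Against control, the count of calls held under the changed settings but fell for KO when a control library was left out. In KO against control, KO1 against control and KO2 against control the count of cyclophilins called was 4 under DESeq2, RLE size factors, no filter, at least 10 counts in every library and a threshold of 0.05. Leaving out 1 library in turn gave 1 to 4 for KO against control, the lowest without a control library. Between KO2 and KO1 the count of 1 became 0 at a threshold of 0.05 and 2 with DESeq2, RLE size factors or at least 10 counts in every library, and 0 to 2 with 1 library left out. With the replicate number as a block the count was 0 between KO2 and KO1 and 4 in each comparison with control, and Ppib then had a log2 difference of 0.79 (adjusted p = 0.158). Same-numbered libraries did not deviate together (correlations from -0.196 to 0.056). Few such pairs exist and they share libraries, so this cannot show whether the number marks a pairing.

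Over all genes the calls depended on the controls: 3392 in KO against control became 462 and 574 without control replicate 1 or 2, 1952 with the block and 2235 at a threshold of 0.05. KO1 against control went from 4750 to 1482 and 1764 without a control and to 7752 in a fit of these groups alone, and KO2 against control from 4724 to 1366 and 1456. Between KO2 and KO1 2944 became 1736 with the block, 1643 at 0.05, 1932 in a fit of these groups alone, and 1424, 874 and 1704 without KO1 replicate 1, 2 or 3.

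Values near 0 changed sign, none of them called. With at least 10 counts in every library, Ppid was at -0.0051 and Ppie at -0.0127 in KO1 against control, and Ppia at 0.0027 and Ppif at 0.0169 in KO2 against KO1. Ppif was at 0.0049 in a fit of these groups alone. Leaving out 1 library gave -0.0515 to 0.102 for Ppid and -0.0147 to 0.0429 for Ppie in KO1 against control, and -0.150 to 0.0614 for Ppia, -0.0989 to 0.145 for Ppif and -0.101 to 0.212 for Ppil1 in KO2 against KO1.

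Ppib in control was at 49.0 RPKM with library totals in place of TMM, and its coefficient of variation stayed between 35.96% and 41.6%. Peaks with a score of at least 100 numbered 5, 2, 2 and 5 (4T1-total, 4T1-odd, 4T1-even, NDL-total). Within 10 kb of the promoter there were 6 in 4T1-total and 7 in NDL-total, and within the gene extended by 5 kb 8 in 4T1-even and in NDL-total. At 95% identity Ppia had 1 copy and Ppid 2, against 3 and 5 at 90%. At 300 aligned bases, an alternative chosen after the data were seen, Ppia had 38, Ppid 7, Ppih 6, and Ppig and Ppil1 1 each. The cause of these changes was not tested.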
